A study of Homo sapiens with 11 samples.

Results

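The comparison concerns 3 lines labelled as T-cell acute lymphoblastic leukaemia (T-ALL) with a fusion of the tyrosine kinase gene ABL1. They are set against 8 lines with the same label and without a known fusion. The 3 lines were chosen by name from the 11 lines of the series: ALL-SIL and PEER, which are known to carry NUP214-ABL1, and CML-T1, which is known to carry BCR-ABL1. The deposited labels call each line T-ALL and give its name and NKL homeobox status but not its fusion. The grouping thus rests on prior knowledge of these lines, and the disease of origin was not examined beyond the label. The study profiled established T-ALL lines to compare those with and without activity of NKL subclass homeobox genes. RNA of each line was read on 1 HG U133 Plus 2.0 array, with no treatment given in the labels, and each line served as 1 replicate of its group. ALL-SIL and PEER are labelled NKL-positive and CML-T1 NKL-negative. Among the other 8 lines, CCRF-CEM, HPB-ALL, LOUCY and JURKAT are labelled NKL-positive, and SUP-T1, MOLT-16, MOLT-14 and MOLT-4 NKL-negative. Each line stems from a single leukaemia, so that all other lesions of these 3 leukaemias are part of the grouping too, and fusion and line background cannot be told apart.

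ABL1 encodes a tyrosine kinase that is normally held inactive. Fusion to BCR or to the nucleoporin NUP214 lets ABL1 molecules cluster and signal without an outside stimulus, through adaptor proteins to the RAS-MAPK and PI3K pathways and to the transcription factor STAT5. Active STAT5 switches on its own inhibitors of the SOCS family, including SOCS2, SOCS1 and CISH, and survival genes such as PIM1 and BCL2L1, as cytokines do in normal lymphocytes. In T-ALL the NUP214-ABL1 gene is known to lie on amplified circular DNA pieces formed from the segment of chromosome band 9q34 between both genes.

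Values are log2 signals after RMA, and a difference is the mean of the 3 ABL1 fusion lines minus the mean of the 8 other lines. For each gene with a symbol of its own the brightest probe set on average was taken, which gave 19775 genes. Array medians lay between 4.67 and 4.72 in the ABL1 fusion lines and between 4.63 and 4.76 in the other lines, and lower quartiles between 3.45 and 3.60, so that values around 3 carry no order. As T-lineage markers, 10 or 11 of 11 pan-T genes exceeded the array median in the ABL1 fusion lines and in the other lines alike. Their mean level was 10.34 in ALL-SIL, 9.47 in PEER and 9.49 in CML-T1, and 9.74 to 10.71 in the other lines. PEER and CML-T1 thus lay below all other lines in this mean. Of 15 myeloid markers, 3 exceeded it in each ABL1 fusion line and 1 to 6 in the other lines, and of 9 B-cell markers 4 to 6 in the ABL1 fusion lines and 3 to 6 in the other lines. The poly-A spike-in controls, bacterial transcripts added before labelling, read at 3.01 to 3.14 in CML-T1, HPB-ALL and MOLT-16 and at 5.96 to 9.48 in the remaining 8 lines, which divides both groups. RNA integrity, taken as the 3' minus the 5' signal of ACTB, averaged 0.66 ± 0.32 in the ABL1 fusion lines (SD, n = 3) and 0.69 ± 0.34 in the other lines (SD, n = 8), with p = 0.982 in an exact two-sided permutation test.

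Across all genes, 10 genes (0.0506%) rose and 1 gene (0.00506%) fell in the ABL1 fusion lines at an adjusted p under 0.05 in limma, 0.0556% in either direction. The genes that rose were SOCS2 and CISH, both feedback inhibitors of cytokine signalling, AHR, a ligand-activated transcription factor, and REG4, NCALD, APOL4, TMEM72, TFEC, ZDHHC15 and DENND10. The gene that fell was SPRY2, a feedback inhibitor of receptor tyrosine kinase signalling. In each of these 11 genes all 3 ABL1 fusion lines lay on one side of all 8 other lines. This fixes the sign within each poly-A and each NKL class in advance, so that an equal sign there adds no support. With a term for poly-A status 10 of the 11 genes were still called, and with a term for NKL status 9. At an unadjusted p under 0.05, 320 genes (1.62%) were higher and 290 genes (1.47%) lower, together 610 genes (3.08%). The groups did not overlap in 81 genes (0.41%) that were higher and 83 genes (0.42%) that were lower in the ABL1 fusion lines, together 164 genes (0.829%). With no group difference, a random 3 of the 11 lines would lie apart from the other 8 in a share of 0.0121 of genes. The 0.829% is no more than that, so that lack of overlap alone does not single out a gene. The 3.08% at an unadjusted p is likewise no more than the threshold share of 0.05. The median difference over all genes was -0.04, with 8779 genes higher and 10996 lower. These counts are the base for those of the gene lists below. Without ALL-SIL 5 genes were called and without CML-T1 also 5, in each case 3 of them among the 11, and without PEER 15 genes, 8 of them among the 11. APOL4 and TMEM72 were called in all 3 of these cases. The lines are the replicates, so that each p-value measures the spread between these 11 lines.

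**Figure D1:**
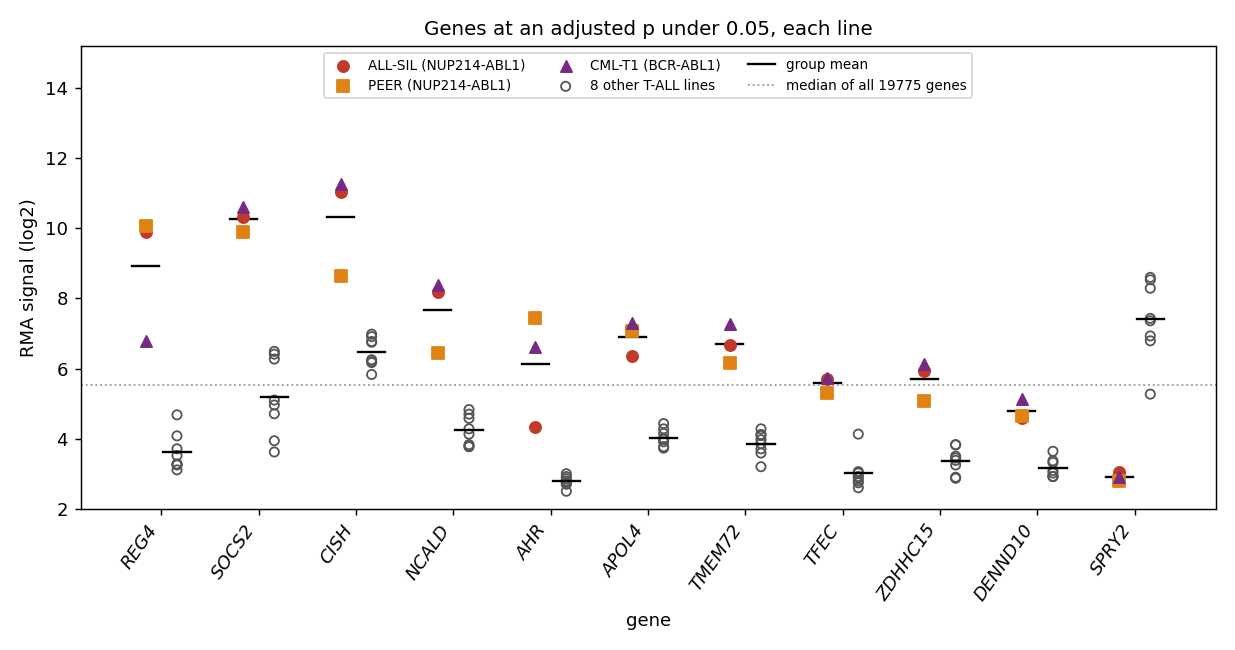
RMA log2 signal (y-axis) of the 11 genes at an adjusted p under 0.05 (x-axis, ordered by difference), with filled symbols for the 3 ABL1 fusion lines on the left, open circles for the 8 other lines on the right and bars at the group means. In no gene do the groups overlap, and SPRY2 is the gene that is lower in the ABL1 fusion lines.

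ABL1 itself did not separate the groups. Its signal was 9.96 in ALL-SIL, 8.36 in PEER and 10.09 in CML-T1, while the other lines ran from 8.26 through a median of 8.73 to 9.06. ALL-SIL and CML-T1 were above all other lines and PEER lay among the lowest. The difference was 0.78 (SE 0.35, limma adjusted p = 0.999), with an exact two-sided permutation p = 0.0848 and 0.0121 as the smallest p that 3 lines against 8 allow. ABL1 has 1 probe set here, which does not tell fused from normal transcripts.

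The fusion partners were not higher by the probe sets read. NUP214, a nucleoporin, was measured at 7.58 in ALL-SIL, 7.19 in PEER and 7.30 in CML-T1, and at 7.35 to 9.59 in the other lines with a median of 7.86 (difference -0.63, exact permutation p = 0.0606). Of its 3 probe sets 2 were lower and 1 was higher, by 0.38. BCR, which encodes a regulator of small GTPases, read 7.53 in ALL-SIL, 6.95 in PEER and 3.12 in CML-T1, against 6.74 to 9.73 in the other lines with a median of 7.96 (difference -2.15, exact permutation p = 0.0606). CML-T1 was the lowest of the 11 lines on all 3 probe sets of BCR, with 3.12, 4.24 and 4.81, and without CML-T1 the difference was -0.78. Which part of BCR these probe sets read was not examined.

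The segment between ABL1 and NUP214 on chromosome 9 held 3 measured genes, FIBCD1, LAMC3 and AIF1L, with a median difference of -0.17. Taken alone, ALL-SIL and PEER differed from the 8 other lines by -0.005, 0.07 and 0.24, and CML-T1 by -1.495, -0.21 and -0.99. In ALL-SIL they read 4.89, 4.95 and 5.47, in PEER 5.33, 4.49 and 5.13 and in CML-T1 3.62, 4.44 and 4.07, which in each gene lay within or just beside the range of the other lines. The 8 measured genes on the ABL1 side and the 8 on the NUP214 side had median differences of -0.08 and -0.08, close to the median of all genes. No gene of this stretch apart from ABL1 passed an unadjusted p under 0.05 in limma. Transcript levels do not give copy numbers.

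**Figure D2:**
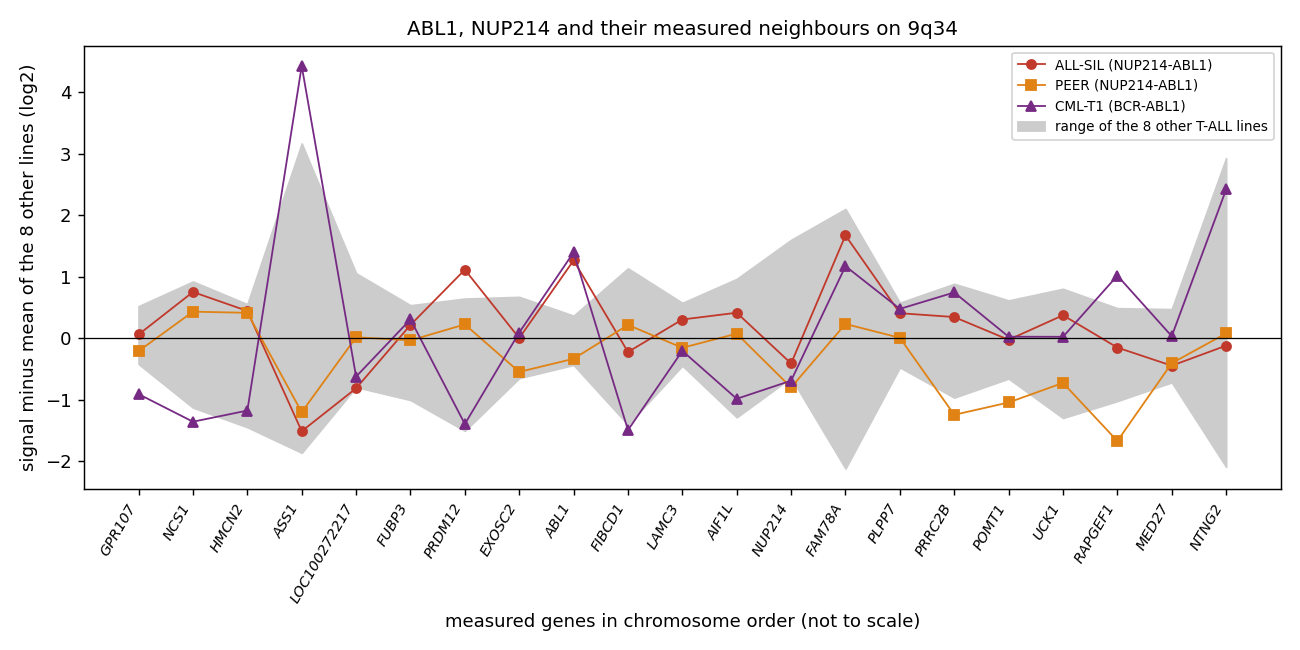
Signal of each ABL1 fusion line minus the mean of the 8 other lines (y-axis, log2) for ABL1, NUP214, the 3 measured genes between them and 8 measured genes on each side (x-axis, chromosome order, not to scale). The grey band is the range of the 8 other lines, which ALL-SIL and CML-T1 exceed at ABL1 and no ABL1 fusion line exceeds at the 3 genes between ABL1 and NUP214.

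Several genes of the STAT5 and cytokine response were higher in the ABL1 fusion lines. SOCS2, a ubiquitin ligase subunit that ends cytokine receptor signalling, was measured at 10.31 in ALL-SIL, 9.90 in PEER and 10.62 in CML-T1. In the other lines it ran from 3.62 through a median of 5.03 to 6.49. The difference was 5.09 (SE 0.61, limma adjusted p = 0.0106), and it was 4.93 among arrays with poly-A signal and 5.41 among those without. All 3 probe sets of SOCS2 were higher, by 5.23, 5.09 and 0.71, and the antisense gene SOCS2-AS1 read 4.91, 4.36 and 6.29 in ALL-SIL, PEER and CML-T1 and 2.92 to 4.01 in the other lines, again without overlap. Without ALL-SIL the adjusted p of SOCS2 was 0.0836 and without CML-T1 0.0873, at differences of 5.07 and 4.92.

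CISH, the founding SOCS family member and a known STAT5 target, reached 11.03 in ALL-SIL, 8.65 in PEER and 11.26 in CML-T1. The other lines kept between 5.83 and 6.98, with a median of 6.50. The difference was 3.83 (SE 0.49, limma adjusted p = 0.0135) with all 3 lines above the other 8, and the 3 probe sets differed by 3.83, 4.26 and 4.74. Without ALL-SIL the adjusted p of CISH was 0.118, and without CML-T1 0.0943. Its promoter is shown because STAT5 dimers are known to bind the palindrome TTCNNNGAA, which occurs 4 times in the 250 bases before the annotated start (RefSeq, GRCh38.p14, chr3:50611775-50612024, minus strand). The matches, in capitals, begin 241, 230, 129 and 112 bases before the start.
CISH promoter: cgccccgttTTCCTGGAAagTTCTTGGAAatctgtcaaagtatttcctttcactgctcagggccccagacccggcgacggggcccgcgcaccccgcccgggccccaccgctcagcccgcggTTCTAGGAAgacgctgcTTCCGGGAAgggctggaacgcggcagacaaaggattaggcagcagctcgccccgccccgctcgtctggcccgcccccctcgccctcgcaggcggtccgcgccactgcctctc
Of 35116 promoters of 300 bases in the RefSeq table, 7.66% hold this motif at least once and 7 (0.0199%) hold it 4 times or more. It reads the same on both strands. Of the 20 measured STAT5 and cytokine response genes 14 had a promoter in the table, and 4 of these, BCL6, CISH, LTA and NMI, held the motif. BCL6 held it 4 times as well, and its mean was lower in the ABL1 fusion lines. LTA, which was higher, held it 2 times. SOCS1, PIM1 and BCL2L1 were also higher and held it 0 times. SOCS2, OSM and CCND2 had no promoter in the table. A match describes the letters and does not show binding in these lines.

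SOCS1, which inhibits JAK kinases directly, followed with 9.40 in ALL-SIL, 8.23 in PEER and 9.71 in CML-T1, against 4.19 to 7.10 in the other lines with a median of 5.31. The groups did not overlap, with a difference of 3.64 (SE 0.61), yet the limma adjusted p was 0.113. It was 0.0213 with a term for poly-A status and 0.0349 without MOLT-16, the highest of the other lines, but SOCS1 passed in only 3 of 22 alternative settings, with an adjusted p = 0.648 without ALL-SIL. The 5 remaining members of the SOCS family differed by -1.07 to 0.06, and none passed an unadjusted p under 0.05.

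PIM1, a serine/threonine kinase that promotes survival downstream of STAT5, read 8.96 in ALL-SIL, 7.32 in PEER and 10.40 in CML-T1. The other lines ran from 5.77 through 6.71 to 7.95, so that PEER lay inside their range and below HPB-ALL and MOLT-14. The difference was 2.06 (SE 0.59), with a limma adjusted p = 0.999 over all genes and an exact two-sided permutation p = 0.0364. Within arrays with poly-A signal it was 1.39 and within those without 3.32, where CML-T1 was the only ABL1 fusion line.

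Of the 20 measured STAT5 and cytokine response genes, 14 were higher and 6 lower in the ABL1 fusion lines, with a median difference of 0.62 beside -0.04 over all genes. At an unadjusted p under 0.05 in limma 8 members (40%) were higher, where 1.62% of all genes were, and none was lower, where 1.47% were. They were SOCS2, CISH, SOCS1, PIM1, OSM, BCL2L1, LTA and CCND2. BCL2L1, which encodes the survival protein BCL-XL, was measured at 9.11 in ALL-SIL, 8.85 in PEER and 9.13 in CML-T1, above every other line except JURKAT at 9.28, the remaining 7 running from 7.36 to 8.45. OSM, the cytokine oncostatin M and a known STAT5 target, read 6.88, 4.70 and 6.25 in ALL-SIL, PEER and CML-T1 and 3.37 to 5.30 in the other lines. CCND2, a cyclin of the early cell cycle, was uneven, with 5.44, 8.20 and 11.85 in the ABL1 fusion lines in the same order and 2.92 to 9.69 in the other lines. BCL6, a repressor that STAT5 is known to lower, read 5.40 in ALL-SIL, 5.84 in PEER and 9.28 in CML-T1 and 5.53 to 10.76 in the other lines, without passing the test. Without CML-T1 5 members were higher and 2 lower at this p, and with the arrays with poly-A signal alone 4 were higher and none lower. The shares of all genes at this p were not computed in these settings, so that these counts have no background beside them. The list median was 0.37 without LOUCY and 0.49 without CML-T1. The list was written with earlier results of these data known.

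**Figure D3:**
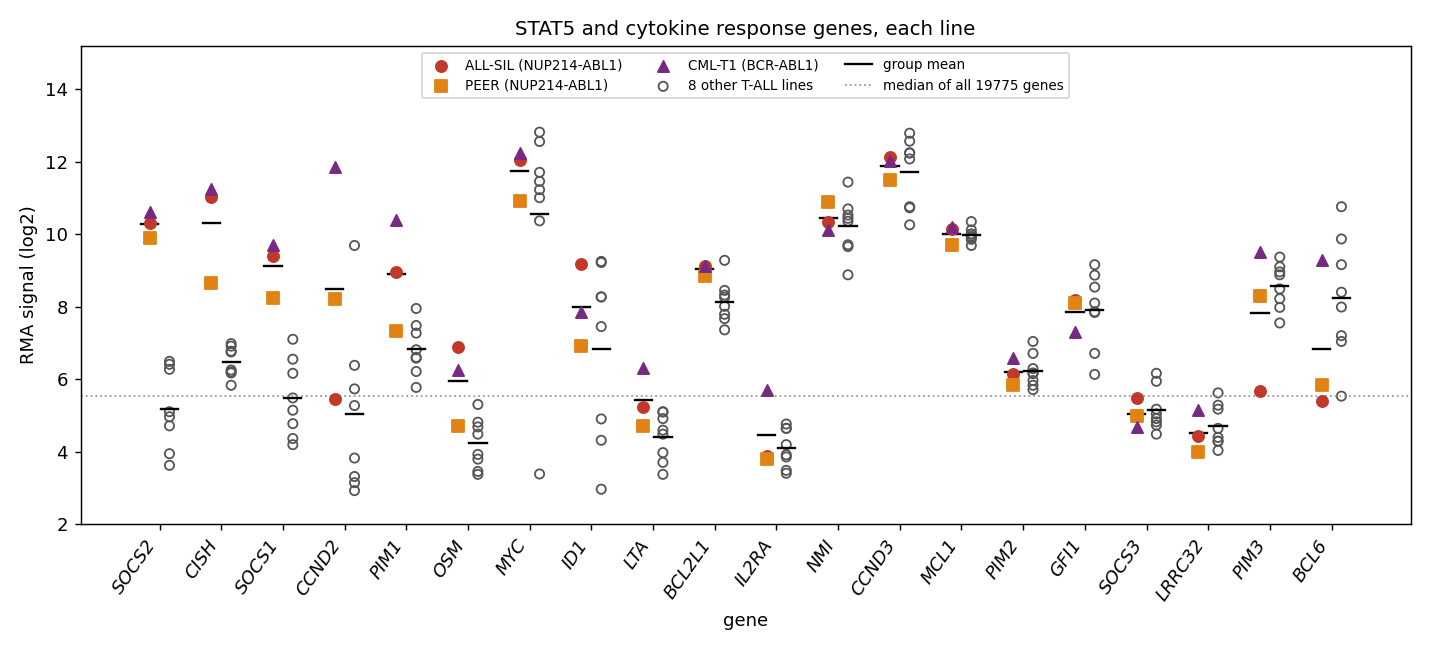
RMA log2 signal (y-axis) of the 20 STAT5 and cytokine response genes (x-axis, ordered by difference), with filled symbols for the 3 ABL1 fusion lines on the left, open circles for the 8 other lines on the right and bars at the group means. SOCS2, CISH and SOCS1 are the 3 members whose groups do not overlap.

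Among cytokine receptors and JAK kinases, 12 of 21 measured genes were higher and 9 lower, with a median difference of 0.16. At an unadjusted p under 0.05 in limma 1 member (4.76%) was higher, IL21R, where 1.62% of all genes were. Likewise 1 member (4.76%) was lower, IL6ST, where 1.47% of all genes were. IL6ST had the smallest p of the list, with a difference of -3.545 (SE 0.83, limma adjusted p = 0.719), and its values by line are given below. IL21R, a receptor chain that signals through JAK kinases, read 4.42 in ALL-SIL, 6.48 in PEER and 7.17 in CML-T1 and 2.96 to 5.61 in the other lines. IL2RB, the receptor chain shared by IL-2 and IL-15, read 8.06, 7.64 and 8.81 in the same order, which overlapped the range of 4.25 to 9.09 in the other lines because LOUCY and MOLT-16 were high.

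Of 21 measured genes of ABL1 adaptors and substrates 10 were higher and 11 lower, with a median difference of -0.05. Among them GAB2, the docking protein through which BCR-ABL1 is known to reach PI3K and RAS, read 10.42 in ALL-SIL, 8.79 in PEER and 11.18 in CML-T1 and 6.58 to 8.63 in the other lines, with a median of 8.09. The groups did not overlap, by a gap of 0.16, and the difference of 2.37 (SE 0.54) had a limma adjusted p = 0.681. Of 17 measured PI3K, AKT and FOXO genes 11 were higher and 6 lower, with a median difference of 0.145. Among them PIK3CD, the PI3K catalytic subunit of leukocytes, did not overlap between the groups. It read 10.64 in ALL-SIL, 10.22 in PEER and 9.87 in CML-T1, against 7.03 to 9.22 in the other lines (difference 1.67, SE 0.46, limma adjusted p = 0.999). Of 16 measured tyrosine phosphatase genes 9 were higher and 7 lower, with a median difference of 0.16. PTPN18, one of the 7, was lower without overlap. It read 5.71, 5.54 and 5.73 in ALL-SIL, PEER and CML-T1 and 5.74 to 7.66 in the other lines, where LOUCY came within 0.01. Of 17 measured ABL-class and other kinases that ABL inhibitors block 10 were higher and 7 lower, with a median difference of 0.07. CSK, the kinase that restrains SRC family kinases, read 10.47, 10.10 and 9.92 in ALL-SIL, PEER and CML-T1, above all other lines but HPB-ALL at 10.19. DDR2, a collagen receptor kinase that ABL inhibitors also block, read 3.31 to 3.66 in the ABL1 fusion lines and 4.19 to 5.30 in the other lines, without overlap but below the array medians in most lines.

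The MAPK feedback genes differed in both directions, 10 of 20 measured being higher and 10 lower, with a median difference of -0.01. SPRY2, a Sprouty protein that inhibits RAS-MAPK signalling from receptor tyrosine kinases, was near the floor of the arrays in all 3 ABL1 fusion lines, with 3.06 in ALL-SIL, 2.78 in PEER and 2.92 in CML-T1. In the other lines it was measured at 5.27 in CCRF-CEM and at 6.79 to 8.60 in the remaining 7. The difference was -4.48 (SE 0.60, limma adjusted p = 0.0198). It was -4.28 among arrays with poly-A signal and -5.10 among those without, and -4.46 among NKL-positive and -4.50 among NKL-negative lines. The adjusted p of SPRY2 was 0.0511 with a term for NKL status, and it passed the threshold in 13 of 22 alternative settings while the difference stayed between -4.78 and -3.94.

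Of the 7 Sprouty and SPRED genes measured 3 were lower, and SPRY2 alone passed the adjusted threshold. SPRED2 differed by -1.01. SPRY4, another Sprouty gene, was high in CML-T1 with 8.52, while ALL-SIL with 4.28 and PEER with 3.98 lay in the range of the other lines, 3.83 to 5.44. DUSP6, a phosphatase that switches off ERK and is itself induced by it, read 11.70 in ALL-SIL, 8.07 in PEER and 12.48 in CML-T1, and 3.90 to 10.98 in the other lines. ALL-SIL and CML-T1 were above all other lines in DUSP6, and PEER was below CCRF-CEM, LOUCY and MOLT-14 (difference 3.70, SE 1.52, limma adjusted p = 0.999).

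AHR and the gene of its repressor, AHRR, were both higher in the ABL1 fusion lines. AHR, a receptor of environmental and metabolic ligands that also acts in T cells, read 4.32 in ALL-SIL, 7.45 in PEER and 6.62 in CML-T1. ALL-SIL was thus below its array median of 4.67. The 8 lines without a fusion lay between 2.50 and 3.0, below the lower quartile of every array. The difference was 3.35 (SE 0.49, limma adjusted p = 0.0365), but AHR passed the threshold in only 4 of 21 alternative settings, while the difference stayed between 2.60 and 4.25. AHRR, which AHR is known to induce and which then competes with it, read 9.26 in ALL-SIL, 10.92 in PEER and 7.67 in CML-T1. The other lines ran from 3.70 through a median of 4.94 to 7.03. The groups did not overlap, and the difference of 3.99 (SE 0.77) had a limma adjusted p = 0.281. PEER was highest in both genes, while ALL-SIL was lowest of the ABL1 fusion lines in AHR and CML-T1 in AHRR.

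CYP1A1, the cytochrome gene that is the classical target of AHR, was high in PEER only, at 10.21. ALL-SIL with 4.48 and CML-T1 with 5.69 were close to the range of the other lines, 3.40 to 5.28. CYP1B1, a further known target, stayed between 3.34 and 3.73 in the ABL1 fusion lines and between 3.20 and 5.15 in the other lines. Of 11 measured AHR pathway genes 8 were higher and 3 lower, with a median difference of 0.26. This list was added after AHR had been seen among the called genes, and its counts are a description.

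The AHRR promoter is shown because the AHR complex is known to bind the motif TNGCGTG, searched on both strands, which occurs once in the 250 bases before the annotated start (RefSeq, GRCh38.p14, chr5:321464-321713, plus strand). The match, in capitals, begins 32 bases before the start.
AHRR promoter: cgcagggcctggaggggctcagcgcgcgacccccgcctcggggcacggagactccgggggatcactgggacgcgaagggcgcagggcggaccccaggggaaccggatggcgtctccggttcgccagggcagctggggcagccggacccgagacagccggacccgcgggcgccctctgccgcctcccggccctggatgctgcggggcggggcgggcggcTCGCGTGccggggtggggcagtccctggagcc
Of all 35116 promoters 5.51% hold this motif. Among the 9 AHR pathway genes with a promoter in the table, AHRR and NQO1 held it.

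**Figure D4:**
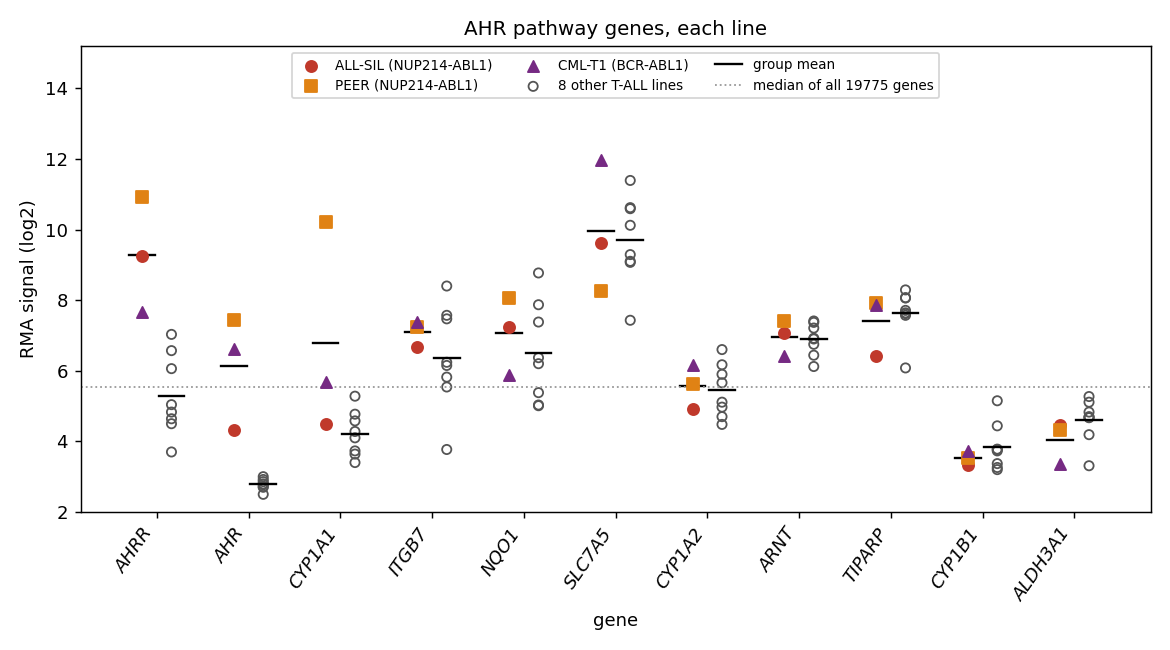
RMA log2 signal (y-axis) of the 11 measured AHR pathway genes (x-axis, ordered by difference), with filled symbols for the 3 ABL1 fusion lines on the left, open circles for the 8 other lines on the right and bars at the group means. AHRR and AHR separate the groups, and CYP1A1 is high in PEER.

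The remaining 7 genes that rose were dim in the 8 other lines by the probe sets read, where none passed 4.83. APOL4, an apolipoprotein L gene, had the smallest adjusted p, with 6.35 in ALL-SIL, 7.08 in PEER and 7.29 in CML-T1 and 3.73 to 4.43 in the other lines (difference 2.87, SE 0.24, limma adjusted p = 0.00131). The other probe sets of APOL4 differed by 1.37 and -0.39, and SUP-T1 reached 5.77 on one of them. TMEM72, a gene for a membrane protein, read 6.66, 6.16 and 7.27 in ALL-SIL, PEER and CML-T1 and 3.20 to 4.28 in the other lines (difference 2.84, SE 0.28, limma adjusted p = 0.00421). A second TMEM72 probe set overlapped between the groups, with 4.97, 5.17 and 5.62 in the ABL1 fusion lines in the same order and 2.79 to 5.86 in the other lines, LOUCY being the highest. APOL4 and TMEM72 each passed the threshold in 20 of 21 alternative settings, more often than the other 9 genes.

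REG4, a secreted lectin known from gut epithelium, showed the largest difference of all genes without overlap, 5.30 (SE 0.61, limma adjusted p = 0.0104). It read 9.88 in ALL-SIL, 10.06 in PEER and 6.79 in CML-T1 and 3.11 to 4.68 in the other lines. CML-T1 was thus between the pair with NUP214-ABL1 and the lines without a fusion. REG4 was read from 1 of 3 probe sets, the other two staying between 2.82 and 4.03 in all 11 lines. NCALD, a neuronal calcium sensor, read 8.17, 6.43 and 8.37 in ALL-SIL, PEER and CML-T1 and 3.77 to 4.83 in the other lines, and its other probe set did not differ (-0.00).

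TFEC, a transcription factor of the MITF family known from macrophages, read 5.71, 5.29 and 5.73 in ALL-SIL, PEER and CML-T1 and 2.60 to 4.13 in the other lines, where MOLT-16 was the highest. ZDHHC15, a palmitoyltransferase gene, read 5.93, 5.08 and 6.12 in the same order and 2.87 to 3.83 in the other lines. DENND10, a gene of the DENN domain family, read 4.58, 4.64 and 5.14 and 2.92 to 3.64 in the other lines, and its other probe set differed by -0.09. In ALL-SIL and PEER DENND10 was dim as well, below their array medians of 4.67 and 4.70. The differences were 2.56, 2.34 and 1.64, all past the threshold in limma. DENND10 stayed past it in 12 of 21 alternative settings. Without ALL-SIL or without CML-T1, NCALD, TFEC, ZDHHC15 and DENND10 did not pass, nor did REG4 without ALL-SIL.

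Beyond the called genes and AHRR, the largest differences without overlap concerned DPP4, LIN28B, MDFIC and SLC35F3. DPP4, the surface peptidase CD26 that marks T cells and is known from leukaemic stem cells with BCR-ABL1, read 9.55 in ALL-SIL, 7.29 in PEER and 9.64 in CML-T1. The other lines ran from 3.16 through a median of 4.41 to 7.06, which MOLT-16 reached. The difference was 4.14 (SE 0.76, limma adjusted p = 0.211), and the other probe sets of DPP4 differed by 5.48 and 4.90. Without MOLT-16 the adjusted p was 0.0299, but DPP4 passed in only 2 of 22 alternative settings, with an adjusted p = 0.911 without ALL-SIL.

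LIN28B, an RNA-binding protein of fetal blood cells, read 9.60, 9.12 and 10.73 in ALL-SIL, PEER and CML-T1, but 8.49 to 8.95 also in HPB-ALL, LOUCY and SUP-T1, 6.70 in MOLT-4 and 3.02 to 3.38 in the remaining 4 lines. MDFIC, a regulator of transcription, was alike in this respect, with 9.28 to 11.25 in the ABL1 fusion lines, 2.64 to 3.26 in MOLT-4, MOLT-16 and SUP-T1 and up to 9.22 in the remaining 5. SLC35F3, a putative transporter gene, read 8.32, 5.87 and 8.80 in ALL-SIL, PEER and CML-T1 and 3.02 to 5.10 in the other lines (difference 3.76, SE 0.60, limma adjusted p = 0.0755).

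Of the genes that were lower without overlap, ITGAV, the integrin alpha V chain, read 2.82 in ALL-SIL, 3.49 in PEER and 6.27 in CML-T1 and 6.36 to 8.42 in the other lines (difference -3.25, SE 0.64, limma adjusted p = 0.321). CML-T1 was only 0.09 below MOLT-16, and without CML-T1 the difference was -4.29 with an adjusted p = 0.0159. Without ALL-SIL it was -2.56 with an adjusted p = 0.999, and ITGAV passed in 3 of 22 alternative settings. KCTD12, an auxiliary subunit gene of GABA-B receptors, read 2.76, 3.64 and 3.16 in ALL-SIL, PEER and CML-T1 and 4.68 to 8.36 in the other lines. HEBP1, a heme-binding protein gene, read 3.09, 5.60 and 5.76 in the same order and 6.15 to 9.69 in the other lines. MSX1, an NKL homeobox gene, was at 3.21 to 3.49 in the ABL1 fusion lines and ran from 3.55 in SUP-T1 to 8.04 in LOUCY. HEY1, a NOTCH target, was at 3.85 to 4.26 in the ABL1 fusion lines and at 4.39 to 11.63 in the other lines, SUP-T1 being the highest. ZNF415, MAGI3, STC2 and MED12L differed by -2.65 to -1.42. None of these 9 genes passed the adjusted threshold over all 11 lines.

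With regard to T-cell stage the groups overlapped. The double positive thymocyte markers, which include the CD1 genes, had the lowest median difference of the 21 lists, -1.57, with 4 of 18 higher and 14 lower, yet none passed an unadjusted p under 0.05. Their mean ranged from 6.44 to 7.34 in the ABL1 fusion lines and from 5.35 to 10.48 in the other lines. CD1D read 5.10, 2.86 and 2.92 in ALL-SIL, PEER and CML-T1 and 2.96 to 9.36 in the other lines. Early progenitor markers had a median difference of -0.56 and mature T-cell markers of 0.46, with no member past the unadjusted threshold in either list. CD2, an adhesion receptor of T cells, was low in all 3 ABL1 fusion lines, at 4.81, 4.16 and 4.13 in ALL-SIL, PEER and CML-T1, and likewise in LOUCY at 4.43 and SUP-T1 at 4.21, while the remaining 6 ran from 5.73 to 10.89. CD3E, a chain of the T-cell receptor complex, read 10.13, 9.28 and 9.19 in ALL-SIL, PEER and CML-T1 and 9.92 to 10.69 in the other lines. Of the 11 pan-T genes 4 were higher and 7 lower, with a median difference of -0.26. CD2 and CD3E (18.2%) were lower at an unadjusted p under 0.05 in limma, where 1.47% of all genes were. Of 22 measured T-cell receptor signalling genes 7 were higher and 15 lower, with a median difference of -0.29. Over all genes 8779 were higher and 10996 lower, so that more genes were lower outside these lists too. At this p 2 of them (9.09%) were lower and none higher.

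The cell cycle genes had a median difference of -0.26, 22 of 30 being lower and 8 higher, and 3 members (10%) were lower at an unadjusted p under 0.05, where 1.47% of all genes were. These were MKI67, the Ki-67 proliferation marker, AURKA, a mitotic kinase, and CCNB2, a mitotic cyclin. MKI67 read 9.86, 8.87 and 8.89 in ALL-SIL, PEER and CML-T1 and 9.72 to 11.14 in the other lines. The other probe sets of MKI67 differed by -0.58, -0.73 and -0.09. The mean over the 30 genes was 10.39 in ALL-SIL and 10.28 in PEER, within the range of 9.68 to 10.61 in the other lines. Only CML-T1 lay below that range, so that the ABL1 fusion lines did not share a low list mean. Growth state of the cultures was not given in the sources used here, and its part in these values was not tested.

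Of 12 measured genes often lost in ABL1 fusion leukaemia 5 were higher and 7 lower, with a median difference of -0.06. RB1, the retinoblastoma tumour suppressor, was near the floor in ALL-SIL at 2.76 and high in all other 10 lines by the probe set read, at 10.64 in PEER, 9.69 in CML-T1 and 9.35 to 10.98 in the lines without a fusion. A second RB1 probe set read 8.71 in ALL-SIL, the highest of all 11 lines, with 7.90 in PEER, 6.92 in CML-T1 and 5.92 to 8.04 in the lines without a fusion, so that the probe sets disagree on ALL-SIL. MTAP, which neighbours CDKN2A and is often lost with it, read 3.12 in ALL-SIL and 2.92 in CML-T1 but 6.35 in PEER. It was also low in CCRF-CEM, MOLT-14 and JURKAT, at 2.74 to 3.02, and at 6.98 to 8.66 in the remaining 5 lines. On 2 further MTAP probe sets ALL-SIL read 5.58 and 5.99, slightly above PEER at 5.48 and 5.71, while CML-T1 stayed at 3.12 and 3.0.

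**Figure D5:**
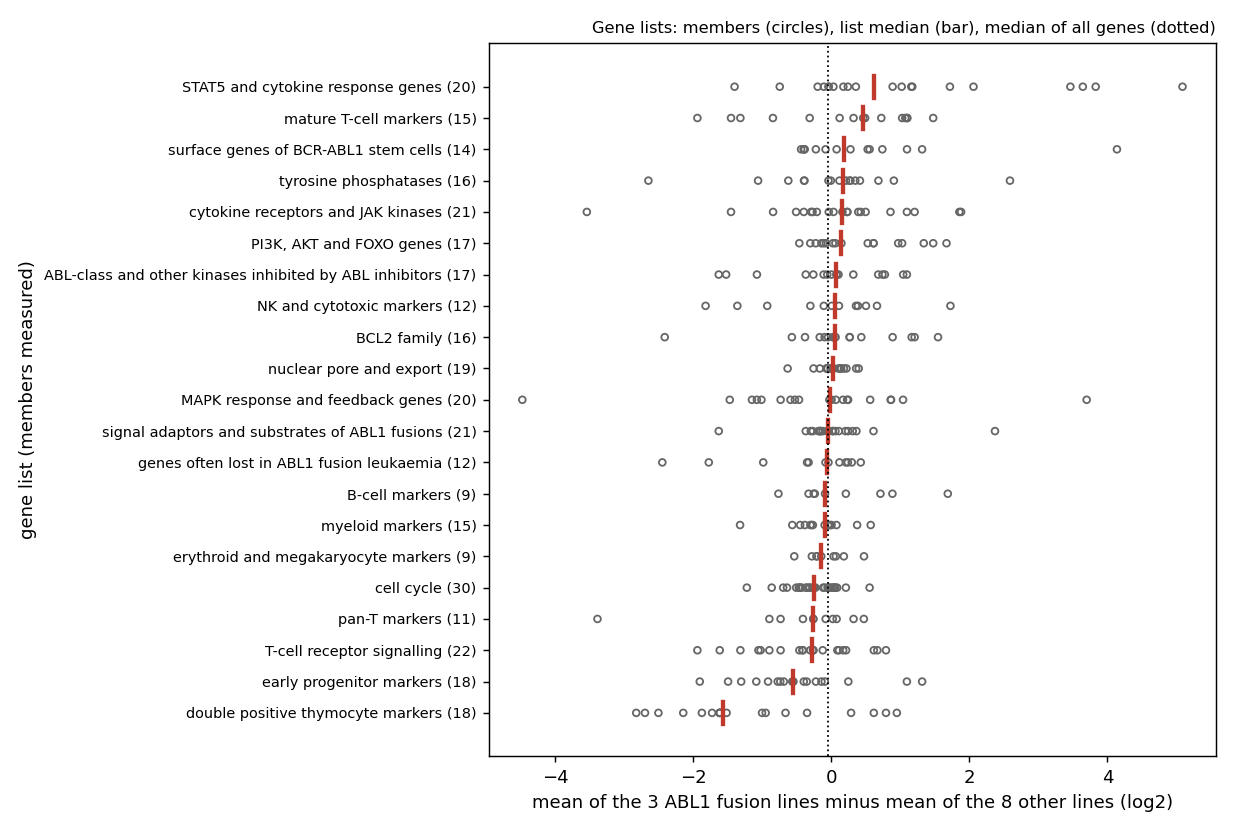
Difference of the means, ABL1 fusion lines minus other lines (x-axis, log2), for each measured member (circles) of the 21 gene lists (y-axis, number measured in brackets), with a bar at the list median and a dotted line at the median of all genes. STAT5 and cytokine response genes have the highest median, 0.62, and double positive thymocyte markers the lowest, -1.57.

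In further genes ALL-SIL and PEER differed from CML-T1. ALL-SIL and PEER together lay above the 9 remaining lines in 295 genes (1.49%) and below them in 328 genes (1.66%). Shares for other pairs of lines were not computed, so that these counts do not single out this pair. IL6ST, the gp130 chain through which IL-6 family cytokines signal, read 2.66 in ALL-SIL and 3.05 in PEER but 7.22 in CML-T1 and 6.71 to 9.11 in the lines without a fusion. CAMK2D, a calcium-dependent kinase, read 2.98 in ALL-SIL and 3.40 in PEER, against 8.05 in CML-T1 and 6.44 to 8.77 in the lines without a fusion. AUTS2, a neurodevelopmental regulator, read 3.09 and 3.08 in ALL-SIL and PEER, 8.86 in CML-T1 and 4.54 to 10.67 in the lines without a fusion. In the other direction RNF144A, a ubiquitin ligase, reached 10.17 in ALL-SIL and 9.92 in PEER and did not pass 8.07 in any other line. With 2 lines against 1, these values are a description, and fusion partner, NKL status and poly-A status cannot be told apart among the 3 ABL1 fusion lines.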

How the data were processed

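Total RNA of 11 established T-ALL lines was hybridized to HG U133 Plus 2.0 arrays, 1 array per line, at another institute, which provided the data to the authors, and the deposited values are log2 signals obtained with RMA, which corrects background, equalizes the distributions of the arrays by quantile normalization and combines the probes of a probe set. They were used as deposited, without further scaling. No detection calls were used, so that low values have no stated limit, and precision is limited by the number of arrays.

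Of 54613 probe sets other than 62 controls, 41091 carried a single symbol in the array annotation, 1801 several and 11721 none. The single-symbol probe sets gave 19775 genes, 19738 of them with a RefSeq symbol. The 3 ABL1 fusion lines and the 8 other lines were compared with limma 3.58.1 in R 4.3.3 (lmFit and eBayes, no covariate, no filter), with Benjamini-Hochberg adjustment over all genes at 0.05, and single values with an exact two-sided permutation test. The procedure was tested on simulated data first.

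Named were ABL1, SOCS2, PIM1, the fusion partners and the genes between ABL1 and NUP214, all called genes, the 10 largest differences per direction without overlap whose higher mean exceeded the array median, and, from each list, some of the 3 members whose p was smallest. CYP1A1, CYP1B1, SOCS2-AS1, OSM, BCL6, LTA, CCND2, SPRY4, RB1, MTAP and the genes named for a fusion kind or single line were chosen after their values were seen. The lines, the 21 gene lists, the tests and the alternatives were chosen with earlier results of these data known, and the SOCS, AHR, Sprouty and SPRED lists were added after the called genes were seen.

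Alternatives were terms for poly-A and NKL status, the arrays with poly-A signal alone, the comparison without JURKAT, without CML-T1 and without each line, median centring, quantile normalization, a filter on dim genes, a floor, an intensity trend, a fit with array weights, and the mean of a gene's probe sets or every probe set by itself. Promoters came from RefSeq (GRCh38.p14), matched by symbol.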

Additional observations from a re-analysis of the deposited data

Results flagged for a closer look

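Within the 8 lines without a fusion, single lines stood apart in 4 of 70 values examined, each by a gap to the next line that was large beside the range of the group. Chance alone would set apart about 1 in 20 such groups. NUP214 was measured at 9.59 in LOUCY and at 7.35 to 8.13 in the other 7 lines. TFEC read 4.13 in MOLT-16, where the other 7 lines kept between 2.60 and 3.06, all below the ABL1 fusion lines. HEY1 reached 11.63 in SUP-T1 and 4.39 to 6.81 in the other 7 lines. The 3' minus 5' signal of GAPDH was 0.72 in MOLT-4 and -0.20 to 0.23 in the other 7 lines, while it was 0.07 to 0.24 in the ABL1 fusion lines.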

How the results depend on the processing

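The count of 11 called genes was 5 to 15 when a line was left out: 5 without ALL-SIL, 5 without CML-T1 and 15 without PEER. It was 6 with the arrays with poly-A signal alone, 3 with the genes above the median of mean values only and 5 with the mean over probe sets. SOCS2, CISH, SPRY2, NCALD, TFEC, ZDHHC15 and DENND10 were lost both without ALL-SIL and without CML-T1. The count of 164 genes without overlap was 207 to 742 when a line was left out, with 569 without ALL-SIL, 581 without PEER, 742 without CML-T1 and 282 without MOLT-16. It was 1399 with the arrays with poly-A signal alone, 81 with the brighter genes and 414 over all probe sets, since fewer lines or other numbers of features enter. SOCS2 kept a difference of 4.87 to 5.28 when a line was left out. Its limma adjusted p was 0.141 with the arrays with poly-A signal alone, at a difference of 4.93, 0.0836 without ALL-SIL and 0.0873 without CML-T1, at 5.07 and 4.92. The differences of ABL1 and PIM1 kept their direction and stayed short of the adjusted threshold in all settings run for them.

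Of 66 genes examined, 62 kept their direction in all settings run for them. LAMC3 differed by 0.0085 with a term for poly-A status, 0.035 with a term for NKL status and 0.074 without CML-T1, and by -0.18 to 0.074 when a line was left out. AIF1L differed by 0.24 without CML-T1, and by -0.46 to 0.24 over the lines left out. RB1 differed by 0.018 without ALL-SIL, and by -3.92 to 0.018 over the lines left out. SPRY4 differed by -0.438 with the arrays with poly-A signal alone and -0.425 without CML-T1, and by -0.425 to 1.845 over the lines left out. The causes were not tested. Median centring and quantile normalization left the 11 called genes the same. The deposited values were already quantile normalized, so that both settings could change little and their result adds no support. No paired analysis was possible because no line belongs to both groups. The 3 lines of the ABL1 fusion group limit the precision of the main fit. The 2 lines without poly-A signal in the other group limit only the values given within that class. Values near the array floor, in the other lines for 8 of the 11 called genes and in the ABL1 fusion lines for SPRY2, limit the differences.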

Other observations

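Each ABL1 fusion line also had genes in which it stood apart from the 10 remaining lines, which are given as values of single arrays. In CML-T1, SV2B, a synaptic vesicle gene, read 10.75, while the remaining lines did not pass 4.28. ATL3, an endoplasmic reticulum GTPase, read 3.16 and ZC3HAV1L 4.24 in CML-T1, with 8.48 to 10.04 and 9.44 to 10.88 in the remaining lines. In ALL-SIL, L1TD1, an RNA-binding protein of stem cells, read 9.55 against at most 4.20, and the prion protein gene PRNP 2.92.

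In PEER, the immune GTPase genes GIMAP8 and GIMAP4 read 8.81 and 10.55, against at most 3.59 and 6.62 in the remaining lines. CD200, an inhibitory surface ligand, read 8.55 in PEER and at most 4.38 elsewhere. TRIM44 was low in PEER at 3.08, as were PTGER4, a prostaglandin receptor, at 4.10 and FBXW7, the ubiquitin ligase subunit that degrades NOTCH1 and MYC, at 4.04.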
